A study of Mus musculus with 24 samples.

Results

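A group of 7 genes of the cell division programme, Ccnd1, Mcm6, Mcm7, Ube2c, Cdc20, Spc25 and Cenpn, was followed through sorted memory B cells of allergen-exposed mice. The genes were taken by gene symbol from the count table, which held 18470 genes, and all 7 had a row. All 7 also passed the filter on low counts that left 6779 genes for testing. The mice were given house dust mite intranasally and met that allergen again 6 weeks later. The 3 class-switched memory B cell populations (csMBC in the labels) were sorted for bulk RNA sequencing: CCR6+CD69+ cells of the lung, CCR6-CD69- cells of the lung, and circulating cells. Each was taken from animals labelled WT, which carried SCAP +/+ hCD20-TamCre, and from animals labelled SCAP cKO, which carried SCAP fl/fl hCD20-TamCre, giving 6 groups of 4 libraries. Both genotypes therefore carried the hCD20-TamCre transgene, named for the human CD20 promoter and a tamoxifen-dependent Cre. In the cKO animals SCAP, the escort protein of the sterol-sensing SREBP transcription factors, was deleted before the second exposure. The labels did not say whether libraries of a group came from separate animals, so p-values reflect no more than the library-to-library spread, which may be technical. They named lung B cells as the source of every library, the circulating ones included. Age was not stated in the labels used here.

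Most memory B cells rest outside the cell cycle and divide after meeting antigen again. Cyclin D1, the product of Ccnd1, binds the kinases Cdk4 and Cdk6 to drive cells through early G1, and mature B cells are known to rely mainly on cyclins D2 and D3. Mcm6 and Mcm7 encode subunits of the MCM helicase that is loaded on origins in G1 and unwinds DNA in S phase, and both are known targets of E2F factors. Spc25 is a subunit of the NDC80 complex that ties kinetochores to spindle microtubules, and Cenpn reads the centromeric nucleosome that carries CENP-A. Ube2c, the ubiquitin-conjugating enzyme of the anaphase-promoting complex, and Cdc20, its activator, set off the destruction of cyclin B and securin at the end of mitosis.

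Promoter sequences were available in the RefSeq table (build GRCm38.p6) for 6 of the 7 genes. Ccnd1 was not among them. These coordinates belong to a different build from the mm39 of the submitters' processing notes, and no coordinate was carried between the builds. Windows from 250 bases before to 30 bases after the start were searched on both strands for 4 motifs. These were the E2F site (TTTCCCGC, TTTCGCGC, TTTGCCGC or TTTGGCGC), the cell cycle homology region or CHR (TTTGAA or TTCGAA), the CCAAT box (CCAAT), and a sterol response element (TCACNCCAC). Shown here are the stretches from 150 bases before to 30 bases after the start for the helicase pair Mcm6 and Mcm7, whose levels were the most alike among the 7, and for Spc25 and Cenpn, the genes nearly without counts in the libraries labelled cKO. Capitals mark motif matches on either strand.
Mcm6 (chr1:128359676-128359855, minus strand): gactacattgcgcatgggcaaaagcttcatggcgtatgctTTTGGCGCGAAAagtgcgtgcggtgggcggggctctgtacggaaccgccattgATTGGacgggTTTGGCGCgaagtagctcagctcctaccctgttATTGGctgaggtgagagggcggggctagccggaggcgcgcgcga
Mcm7 (chr5:138171854-138172033, minus strand): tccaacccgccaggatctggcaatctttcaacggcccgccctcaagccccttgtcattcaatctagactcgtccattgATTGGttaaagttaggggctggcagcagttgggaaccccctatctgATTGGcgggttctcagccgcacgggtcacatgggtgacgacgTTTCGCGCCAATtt
Spc25 (chr2:69206184-69206363, minus strand): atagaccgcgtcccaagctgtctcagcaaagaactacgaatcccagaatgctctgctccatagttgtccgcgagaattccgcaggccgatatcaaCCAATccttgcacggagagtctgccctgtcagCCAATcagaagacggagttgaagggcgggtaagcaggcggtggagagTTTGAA
Cenpn (chr8:116921590-116921769, plus strand): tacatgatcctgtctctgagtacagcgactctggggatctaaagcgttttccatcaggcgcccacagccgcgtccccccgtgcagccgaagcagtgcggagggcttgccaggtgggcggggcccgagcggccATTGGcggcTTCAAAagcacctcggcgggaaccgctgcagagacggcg

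The Mcm6 window held 3 E2F matches, of which the 2 at 110 and 106 bases before the start overlap, and the third stood 47 bases before it. Mcm7 had RefSeq windows for 2 starts, and the one printed held an E2F match 17 bases after the start, which overlaps a CCAAT box, and another 165 bases before it, outside the printed stretch. The window of the other Mcm7 start held 0 E2F and 0 CHR matches and 1 CCAAT box. An E2F match was present in 2.12% of 32851 windows of the same length. A CHR match stood 25 bases after the start of Spc25, 9 bases before that of Cenpn, 29 bases before that of Ube2c and 18 bases before that of Cdc20, and 18.4% of windows held one. In Mcm7 a CHR match lay 173 bases before the start shown, outside the printed stretch. Every one of the 6 genes had at least 1 CCAAT box, present in 36.1% of windows. The sterol response element was matched in 0 of the 6 genes and in 1.18% of windows. A match describes letters in a window and is not evidence of a bound factor.

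Depth and cell markers bear on every value that follows. Total counts ran from 129025 to 8566243 per library, so that 3 counts, taken here as the detection limit, corresponded to 0.350 to 23.3 CPM (counts scaled to a library total of 1000000). These limits cover counting error only. The smallest library, cKO lung CCR6-CD69- replicate 4, had 0 counts of all 7 genes, and WT circulating replicate 2 had the next smallest total, 356782. Chil3, a product of alveolar macrophages, was the most abundant gene in WT lung CCR6-CD69- replicate 2 and cKO lung CCR6-CD69- replicate 1. Of 12 B cell markers listed, 6 had a row and none of these was at 0 in any group. Scap itself was counted at 0 to 203 CPM in WT libraries and 0 to 446 CPM in libraries labelled cKO. Its log2 fold change averaged over populations was 0.27 ± 0.55 (SE, adjusted p = 0.991 in edgeR). Counts over the whole gene cannot check a deletion of some exons, and which exons were deleted was not stated in the labels, so the genotypes are used here as labelled.

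Ccnd1 was the 1 gene of the 7 that edgeR called between single populations. It was low on average in lung CCR6+CD69+ cells, intermediate in lung CCR6-CD69- cells and highest in circulating cells, in both genotypes. In WT lung CCR6+CD69+ libraries it was counted at 10.2, 20.1, 0.291 and 3.25 CPM (replicates 1 to 4), a mean of 8.46 ± 8.82 (SD, n = 4). WT lung CCR6-CD69- libraries had 233, 159, 79.2 and 54.5 CPM (mean 131 ± 81.0, SD, n = 4). WT circulating libraries had 397, 104, 382 and 174 CPM (mean 264 ± 148, SD, n = 4). The highest WT lung CCR6+CD69+ library thus stood below the lowest library of both other WT populations, while lung CCR6-CD69- and circulating libraries overlapped. The share of all genes that separate in this way is not given here, for Ccnd1 or for the genes below. Groups without overlap are therefore a description only.

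The libraries labelled cKO showed the same order. Lung CCR6+CD69+ libraries had 8.87, 6.46, 0.480 and 0.355 CPM of Ccnd1 (mean 4.04 ± 4.30, SD, n = 4), the last 2 of these resting on 1 count each. Lung CCR6-CD69- libraries had 157, 117, 78.2 and 0 CPM (mean 88.2 ± 67.0, SD, n = 4), where the 0 came from the smallest library and allows up to 23.3 CPM. Circulating libraries had 283, 367, 541 and 431 CPM (mean 405 ± 108, SD, n = 4). All 4 circulating libraries were above every lung library of the same genotype, and the 2 lung populations overlapped only through the library at 0.

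**Figure D1:**
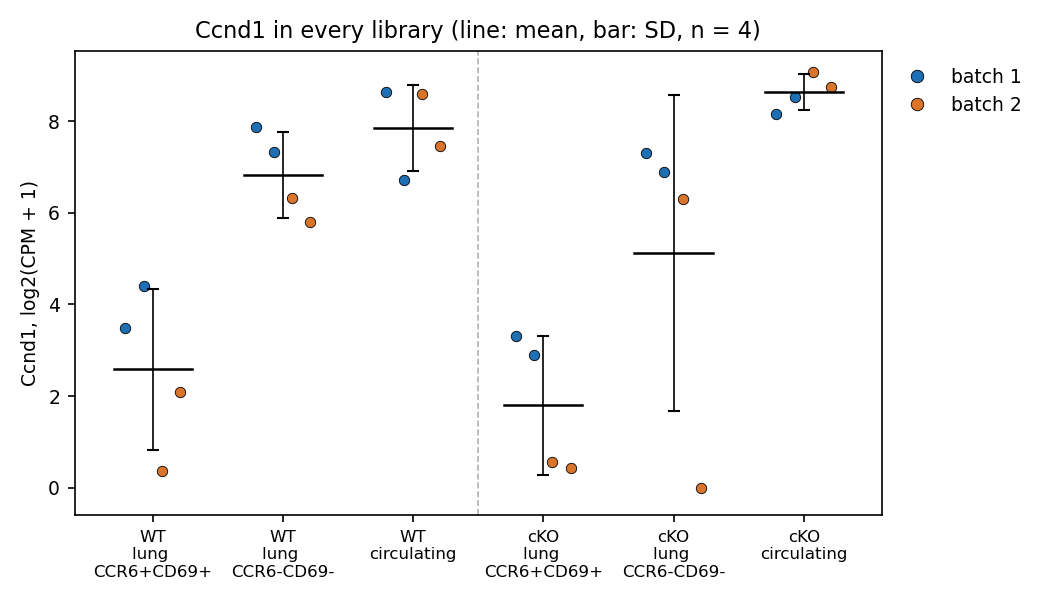
Ccnd1 in each library as log2(CPM + 1), by population and genotype. Points are libraries, coloured by batch, horizontal lines are means and bars SD (n = 4). The 4 WT lung CCR6+CD69+ libraries, at 0.291 to 20.1 CPM, lie below the other WT libraries, at 54.5 to 397 CPM, and the single library at 0 is the smallest of the series.

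Tested in edgeR across all genes, Ccnd1 was lower in WT lung CCR6+CD69+ than in WT lung CCR6-CD69- cells by a log2 fold change of -4.27 ± 0.96 (SE, adjusted p = 0.0221). It was the 1 gene of the 7 called in that comparison, in which 0.295% of all genes were called. Against WT circulating cells its log2 fold change was -5.79 ± 1.04 (adjusted p = 2.54e-04 in edgeR), again as the 1 gene of the 7, with 1.18% of all genes called. In the libraries labelled cKO the corresponding values were -4.71 ± 0.99 against lung CCR6-CD69- (adjusted p = 0.00561 in edgeR) and -7.48 ± 1.12 against circulating cells (adjusted p = 9.94e-06 in edgeR). Ccnd1 was once more the only 1 of the 7 called in each, beside 0.457% and 1.53% of all genes.

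Between lung CCR6-CD69- and circulating cells the Ccnd1 difference did not pass the threshold in edgeR. It was -1.52 ± 0.86 in WT (adjusted p = 0.715) and -2.77 ± 0.90 in libraries labelled cKO (adjusted p = 0.150). None of the 7 genes was called there, with 0.162% and 0.31% of all genes called, and at an unadjusted p under 0.05 there were 0 in WT and 2, Ccnd1 and Mcm6, with the label cKO, beside 585 and 960 of all genes. With DESeq2 the latter of these comparisons called 2 of the 7, Ccnd1 and Mcm6, Ccnd1 at -2.68 (adjusted p = 0.0143), and 520 of all genes against 21 in edgeR. Comparisons within a genotype share groups of libraries and are not independent of each other.

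The Ccnd1 difference was present in both batches. In batch 1 the mean CPM of WT lung CCR6-CD69- libraries was 12.9 times, and that of WT circulating libraries 16.5 times, that of WT lung CCR6+CD69+ libraries. In batch 2 these ratios were 37.7 and 157, where lung CCR6+CD69+ libraries held 1 and 9 counts. Fitted within a batch, the difference between the WT lung populations was -3.69 (adjusted p = 0.321) and -5.15 (adjusted p = 1.00) in edgeR, past the threshold in neither batch alone. It also lost its call without the batch term (adjusted p = 0.261) and when any 1 of the 4 WT lung CCR6+CD69+ libraries, or WT lung CCR6-CD69- replicate 1 or 3, was left out (adjusted p of 0.0556 to 0.192). The difference from WT circulating cells was called with each of the 24 libraries left out in turn, and was not called in batch 1 alone (-4.24, adjusted p = 0.0610) or batch 2 alone (-7.21, adjusted p = 0.250).

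With the label cKO the batches gave ratios over lung CCR6+CD69+ of 17.9 and 93.6 for lung CCR6-CD69- libraries, and of 42.4 and 1162 for circulating libraries. Those of batch 2 were set against lung CCR6+CD69+ libraries with 1 count each and are imprecise. The call between the 2 lung populations was lost within each batch (adjusted p of 0.158 and 0.155), without the batch term (0.0830), with those 8 libraries alone in the edgeR fit (0.367), and without cKO lung CCR6+CD69+ replicate 3 or 4. The call against circulating cells held within both batches (adjusted p of 0.00920 and 0.0455 in edgeR).

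No genotype difference in Ccnd1 passed the threshold. The log2 fold change of cKO against WT was -0.92 ± 0.87 in lung CCR6+CD69+ (adjusted p = 1.00 in edgeR), -0.47 ± 0.84 in lung CCR6-CD69- (adjusted p = 0.998) and 0.77 ± 0.84 in circulating cells (adjusted p = 0.806). The difference between genotypes of the lung CCR6+CD69+ to circulating contrast was -1.69 on the log2 scale (adjusted p = 0.978 in edgeR). In edgeR none of the 7 genes was called in these 3 genotype comparisons, where 0% of all genes were called. At an unadjusted p under 0.05 there were 2 of the 7 in lung CCR6+CD69+ and 2 in lung CCR6-CD69- (Spc25 and Cenpn in both), and 3 in circulating cells (these and Cdc20), beside 155, 496 and 693 of all genes. DESeq2 called none of the 7 there, and 5, 72 and 226 of all genes. In the 3 differences between genotypes edgeR again called 0% of all genes and none of the 7, of which 0 were under an unadjusted p of 0.05, beside 235, 367 and 575 of all genes. DESeq2 called none of the 7 in these, and 6, 30 and 102 of all genes.

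Other genes and other cell markers moved with Ccnd1 across the libraries. Of 22 plasmacytoid dendritic cell markers listed, 14 had a row, and all 14 had counts in every group. The marker lists were written with earlier results of these data known. Of the 14, 4 (Tcf4, Spib, Tlr7 and Irf8) were set aside by hand as also expressed in B cells. These 4 were highest in circulating libraries too. In WT they summed to 2063 to 2768 CPM in lung CCR6+CD69+, 2662 to 3015.5 CPM in lung CCR6-CD69- and 4635 to 6416 CPM in circulating libraries. With the label cKO they summed to 1913 to 2748, 1945 to 5939 and 6060 to 7974 CPM. The 10 left, among them Ccr9, Cox6a2 and Upb1, summed to 37.2 to 80.9 CPM in WT lung CCR6+CD69+ libraries. They summed to 776 to 1172 CPM in WT lung CCR6-CD69- libraries and to 1561 to 2609 CPM in WT circulating libraries. In the libraries labelled cKO they summed to 19.2 to 72.9, 1178 to 3333 and 1607 to 3175 CPM. The order of their medians over the populations was that of Ccnd1, and the lung CCR6-CD69- and circulating libraries labelled cKO overlapped. The smallest library, at 0 for Ccnd1, had the highest sum, 3333 CPM.

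Natural killer cell markers, of which 12 of 18 had a row, summed to at most 85.8 CPM in any lung library and to 1475 to 3293 CPM in circulating libraries. Klra9 was at 0 in 3 of the 4 lung groups, and no other of the 12 was at 0 in any group. The lung populations overlapped in this sum, which reached 74.4 CPM in the CCR6+CD69+ libraries. T cell markers (9 of 16 with a row) summed to 13.0 to 181 CPM in lung CCR6+CD69+, 15.5 to 545 in lung CCR6-CD69- and 357 to 1776 in circulating libraries. Plasma cell markers (3 of 12 with a row, none at 0 in any group) reached at most 303 CPM in the WT libraries of lung CCR6+CD69+ cells and at most 225 CPM in those labelled cKO. They summed to at least 422 and 409 CPM in the lung CCR6-CD69- libraries of the same labels, without overlap, and to 532 to 2807 CPM in circulating libraries. The part of these cells in the Ccnd1 result was not tested. In bulk libraries, fewer cells of a type and less RNA per cell cannot be told apart.

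**Figure D2:**
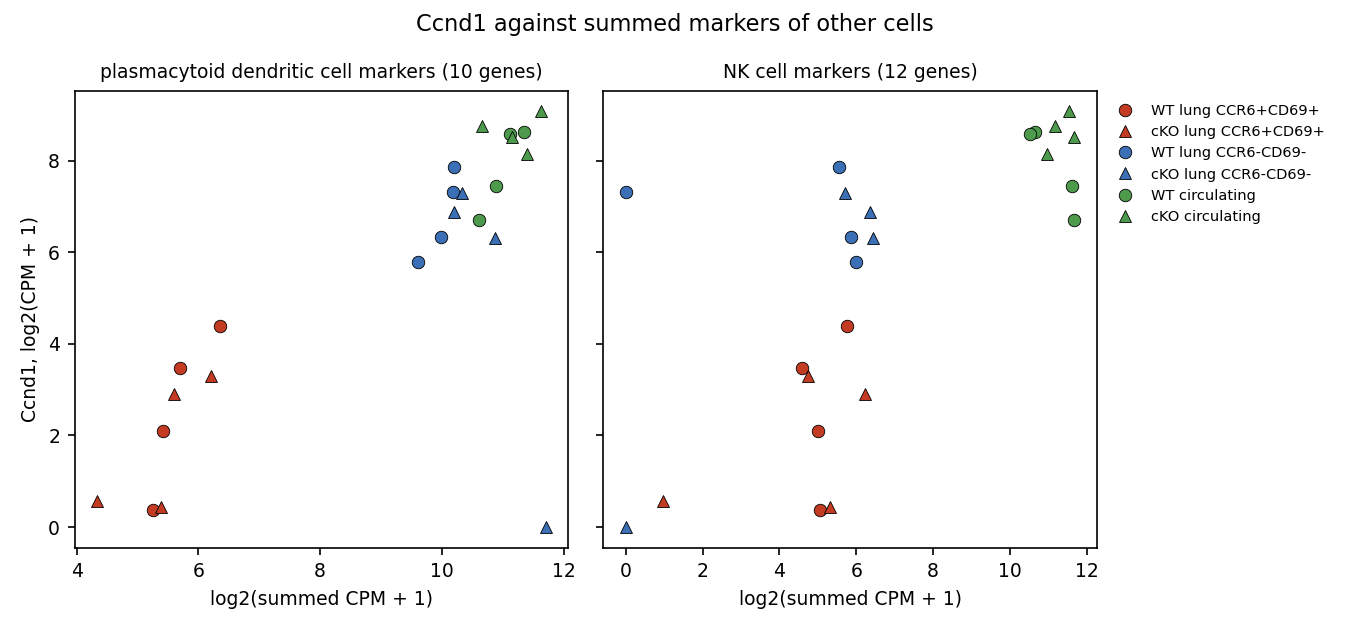
Ccnd1, as log2(CPM + 1), against the summed CPM of 10 plasmacytoid dendritic cell markers (left) and 12 natural killer cell markers (right), each as log2(summed CPM + 1), 1 point per library. Colours are populations and shapes genotypes. The 8 lung CCR6+CD69+ libraries are low on both axes of the left panel, the smallest library is at 0 for Ccnd1 and high in the left panel's sum, and the 8 circulating libraries stand apart at 1475 CPM and above on the right.

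Over the 24 libraries, Pearson's r between Ccnd1 and these summed levels was 0.78 for the 10 plasmacytoid dendritic cell markers, 0.69 for natural killer, 0.81 for T cell, 0.60 for plasma cell and -0.52 for B cell markers, all on a log2 scale. For the 4 genes set aside as also expressed in B cells it was 0.74. The other 4 lists, of macrophage, conventional dendritic, granulocyte and structural cell markers, lay between -0.37 and 0.40. These are descriptions, since the libraries share groups, batches and depth, and the marker lists were written with earlier results known. The genes most like Ccnd1 over the 24 libraries, on log2 CPM with batch means removed, were Dll4, a Notch ligand (r = 0.96), Lrp8, a lipoprotein receptor (r = 0.92), and Selplg, the selectin ligand PSGL-1 (r = 0.92). Dll4 averaged 2.10 ± 2.43, 69.5 ± 24.3 and 214 ± 238 CPM in the WT libraries of CCR6+CD69+ lung, CCR6-CD69- lung and circulating cells (SD, n = 4).

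The helicase genes Mcm6 and Mcm7 were higher on average in circulating than in lung cells, with wide spread. Mcm6 was counted at 139, 104, 64.9 and 120 CPM in WT lung CCR6+CD69+ libraries (mean 107 ± 31.5, SD, n = 4), and at 88.5, 64.7, 132 and 159 CPM in WT lung CCR6-CD69- libraries (mean 111 ± 42.5). WT circulating libraries had 38.0, 376, 253 and 469 CPM (mean 284 ± 186). Replicate 1 was the lowest of all WT libraries, while the other three circulating libraries were above every WT lung library.

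Under the label cKO, Mcm6 stood at 30.5, 144, 86.0 and 136 CPM in lung CCR6+CD69+ (mean 99.2 ± 52.5, SD, n = 4) and at 93.5, 51.8, 20.3 and 0 CPM in lung CCR6-CD69- (mean 41.4 ± 40.8). Circulating libraries had 51.0, 82.5, 393 and 563 CPM (mean 272 ± 248). There the batches differed: both circulating libraries of batch 1 lay within the lung range and both of batch 2 above it. In batch 2 the mean of the circulating libraries was 4.30 times that of lung CCR6+CD69+, and in batch 1 it was 0.765 times.

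Mcm7 was more even in WT. Lung CCR6+CD69+ libraries had 43.2, 26.1, 44.2 and 38.7 CPM (mean 38.0 ± 8.35, SD, n = 4), the narrowest spread of any group for this gene. Lung CCR6-CD69- libraries had 122, 14.7, 38.7 and 79.2 CPM (mean 63.7 ± 47.2), and circulating libraries 235, 193, 105 and 316 CPM (mean 212 ± 87.9). All WT circulating libraries were above all WT lung CCR6+CD69+ libraries, with ratios of means of 6.18 in batch 1 and 5.07 in batch 2. The log2 fold change was -2.46 ± 1.14 and was not called (adjusted p = 0.364 in edgeR).

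With the label cKO, Mcm7 ranged from 8.54 to 75.8 CPM in lung CCR6+CD69+ (mean 34.3 ± 29.8, SD, n = 4) and from 13.6 to 277 CPM in circulating libraries (mean 116 ± 125), which overlapped. In lung CCR6-CD69- it was at 145, 7.16, 1.50 and 0 CPM. The first of these libraries is the cKO library led by Chil3. Mcm6 and Mcm7 were the pair most alike among the 7 genes, with r = 0.75 and Spearman's rho = 0.55 over the 24 libraries after batch means were removed, both at 0 in the smallest library. The gene most like Mcm6 was Tmem234 (r = 0.92), and that most like Mcm7 was Nsmce1, of the SMC5/6 complex (r = 0.82).

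Averaged over genotypes, both lung populations together were compared with circulating cells. Ccnd1 was lower in lung by a log2 fold change of -4.39 ± 0.54 (SE, adjusted p = 9.65e-09 in edgeR), the 1 gene of the 7 called, beside 4.45% of all genes. Mcm7 stood just outside at -2.05 ± 0.65 (adjusted p = 0.0524) and Mcm6 at -1.53 ± 0.53 (adjusted p = 0.0846). Mcm6 and Mcm7 were both called with relative log expression scaling (adjusted p = 0.0464 each) and with DESeq2 (0.00644 and 0.0127), beside 345 and 762 of all genes against 302. Fitted alone, batch 1 gave -0.38 and batch 2 -2.59 for Mcm6, and -1.45 and -3.33 for Mcm7. Without the 2 libraries led by Chil3, Mcm7 was called at -2.76 (adjusted p = 0.00471 in edgeR). Left out singly, cKO lung CCR6-CD69- replicate 1 or 4 brought both past the threshold, WT circulating replicate 1 brought Mcm6 past it, and WT circulating replicate 2, cKO lung CCR6+CD69+ replicate 2 or cKO circulating replicate 2 or 3 brought Mcm7 past it. Of the 7 fitted values 6 were negative, with a median of -2.05, beside 48.8% negative and a median of 0.04 over all genes tested. The positive value was that of Cenpn, whose SE could not be estimated. The 7 genes were chosen with earlier results of these data known, so this is a description and no separate evidence.

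**Figure D3:**
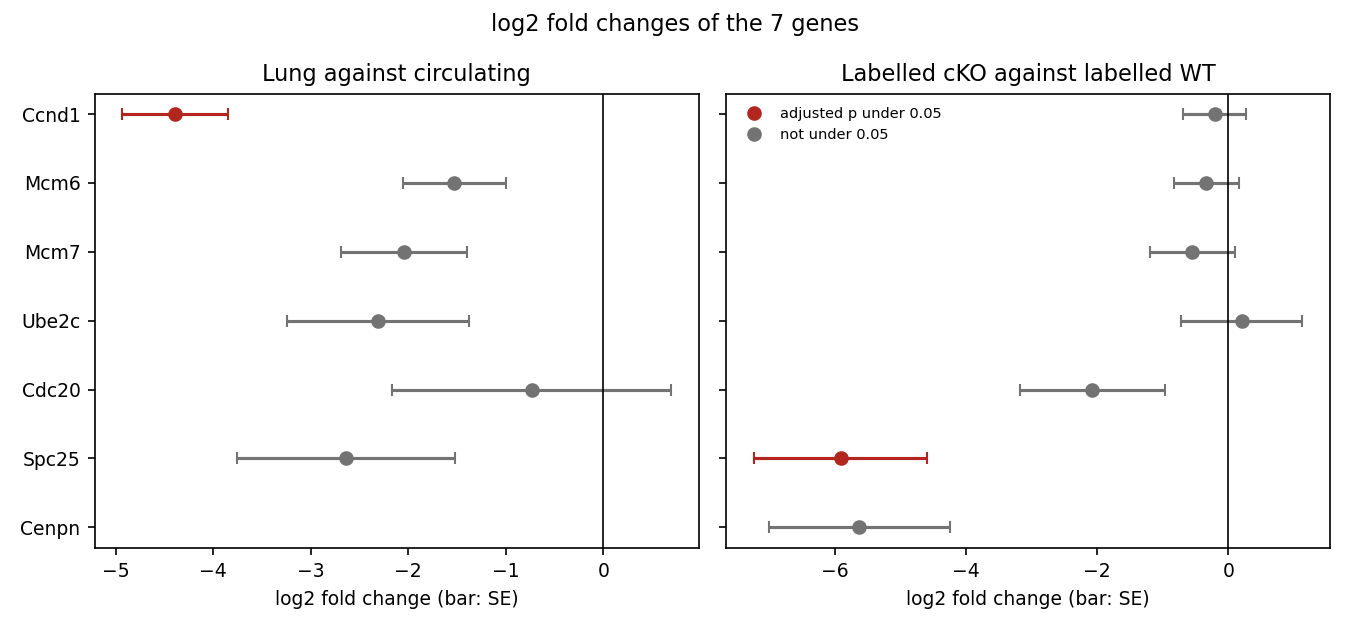
Fitted log2 fold changes of the 7 genes, with SE bars, for lung against circulating cells averaged over genotypes (left) and for libraries labelled cKO against WT averaged over populations (right). Red marks an adjusted p under 0.05 in edgeR: Ccnd1 at -4.39 on the left and Spc25 at -5.92 on the right. Cenpn is left out on the left, where its SE could not be estimated.

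Ube2c had its highest mean in WT circulating libraries. It was counted at 118, 75.7, 90.0 and 20.8 CPM there (mean 76.2 ± 41.0, SD, n = 4) and at 18.0, 3.70, 7.57 and 11.6 CPM in WT lung CCR6+CD69+ libraries (mean 10.2 ± 6.10). These groups did not overlap, though the nearest libraries were 18.0 and 20.8 CPM. WT lung CCR6-CD69- libraries had 33.2, 0, 1.27 and 20.9 CPM (mean 13.8 ± 16.1). The log2 fold change of WT lung CCR6+CD69+ against circulating was -2.79 ± 1.60 (adjusted p = 0.569 in edgeR).

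In the libraries labelled cKO, Ube2c had no order over the populations that exceeded its spread. Lung CCR6+CD69+ libraries had 32.2, 39.2, 0 and 2.13 CPM, high in batch 1 and low in batch 2. Lung CCR6-CD69- libraries had 2.59, 4.21, 48.9 and 0 CPM, and circulating libraries 256, 6.27, 9.59 and 0 CPM, so that 1 library carried most of each group's level. Averaged over genotypes, lung against circulating gave -2.31 ± 0.93 (adjusted p = 0.153 in edgeR), and -3.32 in batch 1 alone (adjusted p = 0.0414) against -1.08 in batch 2 (adjusted p = 0.951). It was also called without cKO lung CCR6-CD69- replicate 3. The gene most like Ube2c was Pclaf, a partner of the replication clamp PCNA (r = 0.84).

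Cdc20 was detected in 19 of 24 libraries and was low in most. WT libraries had 9.92, 16.1, 1.16 and 1.45 CPM in lung CCR6+CD69+, and 0.296, 0, 11.4 and 12.6 CPM in lung CCR6-CD69-. The WT lung populations thus stood in opposite order in the 2 batches. WT circulating libraries had 124, 0, 0.405 and 40.3 CPM, so their mean of 41.1 ± 58.2 (SD, n = 4) rested on 2 libraries.

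In the libraries labelled cKO, Cdc20 lay at 1.64, 1.43, 27.9 and 2.49 CPM in lung CCR6+CD69+, at 0.646, 1.26, 4.51 and 0 in lung CCR6-CD69-, and at 0.548, 4.18, 0 and 0 in circulating libraries. No library of the last group held more than 4 counts. Against WT the circulating log2 fold change was -4.97 ± 2.13 (adjusted p = 0.426 in edgeR), and the lung against circulating value averaged over genotypes was -0.73 ± 1.43 (adjusted p = 0.852). The gene most like Cdc20 was Rpp38, a ribonuclease P subunit (r = 0.79). Ube2c, which acts with Cdc20 at the anaphase-promoting complex, had r = 0.15 with it over the libraries.

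**Figure D4:**
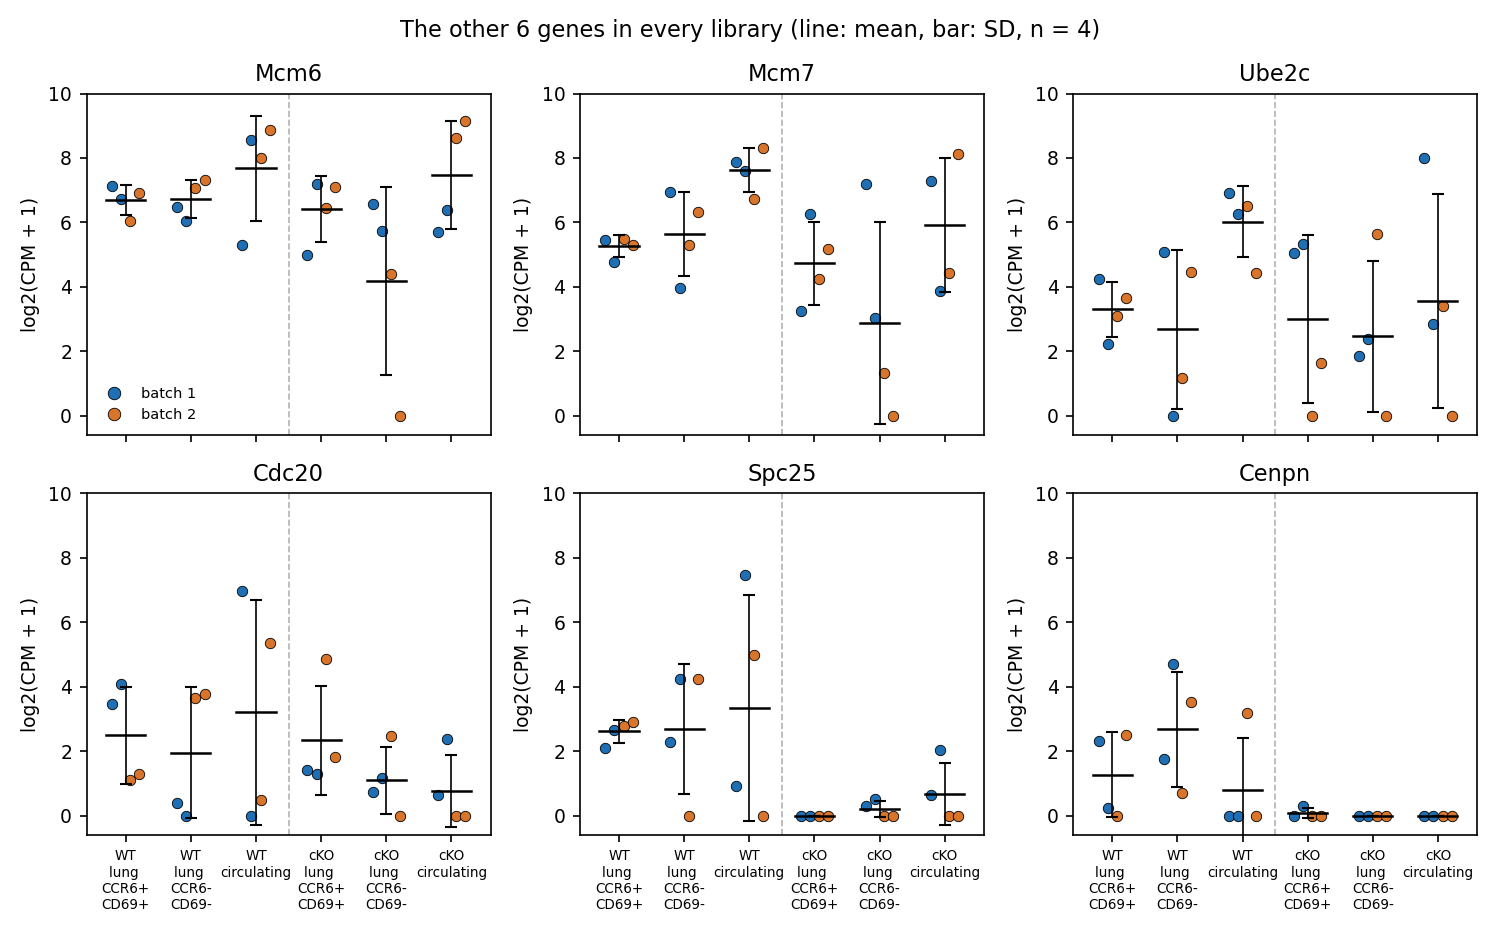
The other 6 genes in each library as log2(CPM + 1), drawn as for Ccnd1. Mcm7 and Ube2c in WT are higher in all circulating than in all lung CCR6+CD69+ libraries, and neither was called there in edgeR (adjusted p of 0.364 and 0.569). The libraries labelled cKO lie at 0 to 3.13 CPM for Spc25 and at 0 to 0.239 CPM for Cenpn, a range that also holds some WT libraries.

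The kinetochore genes Spc25 and Cenpn had counts in 10 and 8 of the 12 WT libraries and in 4 and 1 of the 12 labelled cKO, where no library held more than 3. Spc25 was counted at 3.27, 5.36, 5.82 and 6.51 CPM in WT lung CCR6+CD69+ libraries (28, 29, 20 and 18 counts, mean 5.24 ± 1.40, SD, n = 4). In WT lung CCR6-CD69- libraries it had 3.85, 17.6, 0 and 18.0 CPM, and in WT circulating libraries 0.884, 174, 30.8 and 0 CPM. The value of 174 CPM came from 62 counts in WT circulating replicate 2, one of the smallest libraries.

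All 4 lung CCR6+CD69+ libraries labelled cKO had 0 counts of Spc25. Set against the limit of 3 counts over the group's summed total, 0.247 CPM, the pooled WT level of 4.71 CPM was at least 19.0-fold higher. The lung CCR6-CD69- libraries labelled cKO had 1, 1, 0 and 0 counts and the circulating libraries 1, 3, 0 and 0 counts. Over 12 libraries of each genotype Spc25 had 303 counts in WT and 6 in those labelled cKO, at pooled levels of 8.51 and 0.224 CPM. More than 3 counts were found in 9 WT libraries and in none labelled cKO. The pooled ratio of WT over cKO was 38.1 (exact 95% interval 17.3 to 105, counting error only).

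Cenpn followed the same division at a lower level. WT lung CCR6+CD69+ libraries had 34, 1, 0 and 13 counts, WT lung CCR6-CD69- libraries 8, 17, 1 and 25, and WT circulating libraries 0, 0, 20 and 0. The 12 libraries labelled cKO together held 1 count, in lung CCR6+CD69+ replicate 2. In lung CCR6-CD69-, where the cKO group had 0 counts, the pooled WT level of 6.36 CPM was at least 18.0-fold above the limit of 0.354 CPM set by 3 counts over the group. In circulating cells, also with 0 cKO counts, the pooled WT level of 2.70 CPM was 5.62-fold above the limit of 0.481 CPM. All 20 of these WT counts came from replicate 3, and the other WT circulating libraries were at 0 as well. These pooled ratios, like that of Spc25, allow for counting error in the cKO group and not for the spread between WT libraries. With 119 counts against 1, the pooled ratio was 89.7 with a 95% counting interval of 15.8 to 3572. Spc25 and Cenpn were the second most alike pair among the 7 genes (r = 0.58, rho = 0.48). Their shared low counts in the 12 libraries labelled cKO enter these values, which are no separate evidence of a link.

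**Figure D5:**
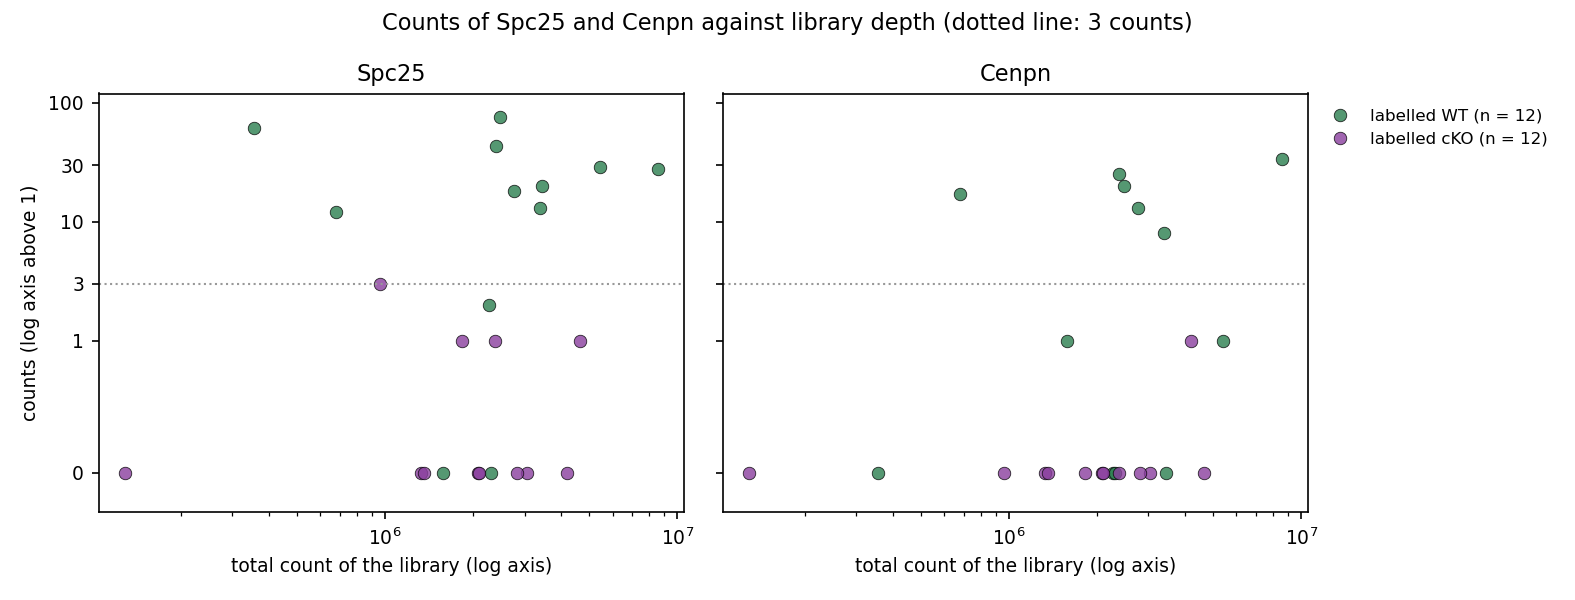
Counts of Spc25 (left) and Cenpn (right) against the total count of each library, with both axes on a log scale (counts linear below 1). Green points are the 12 WT libraries and purple points the 12 labelled cKO. Among libraries of up to 4641148 counts, the largest total labelled cKO, WT libraries reach 76 counts of Spc25 and 25 of Cenpn, and the libraries labelled cKO stay at or below the dotted line of 3 counts.

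Averaged over populations, a comparison added after these counts had been seen, Spc25 was lower in the libraries labelled cKO by a fitted log2 fold change of -5.92 ± 1.33 (SE, adjusted p = 0.0393 in edgeR). It was the 1 gene of the 7 called, beside 0.118% of all genes. Cenpn had -5.63 ± 1.38 and was not called (adjusted p = 0.0850 in edgeR). With groups at 0 these fitted values are no bounds. No library labelled cKO held more than 3 counts of Spc25 or Cenpn, so both passed the filter on low counts through WT libraries alone. A gene kept that way could come out only as lower with the label cKO, so its direction is no separate evidence. The values of the other 5 ranged from -2.08 ± 1.10 for Cdc20 to 0.20 ± 0.93 for Ube2c.

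The Spc25 call depended on the libraries and terms in the fit. It held with DESeq2 (-5.52, adjusted p = 0.00121) and was lost without the batch term (adjusted p = 0.145), in batch 1 alone (-5.45, 0.348), in batch 2 alone (-7.31, 0.227), when the 2 libraries of fewer than 500000 counts were dropped (-5.08, 0.211), and when the 2 with Chil3 on top were dropped (-5.89, 0.110). DESeq2 called 70 of all genes, and the settings that lost the call left 0 to 2 of all genes called, against 8. Among the 24 fits that each left out 1 library it was called in 5, those without WT lung CCR6+CD69+ replicate 2 or 3, WT lung CCR6-CD69- replicate 1, or WT circulating replicate 1 or 4, and adjusted p reached 0.156 without cKO lung CCR6-CD69- replicate 4. Within single populations the fitted differences of -7.07 ± 2.31, -5.51 ± 2.39 and -5.16 ± 2.14 were not called (adjusted p of 1.00, 0.610 and 0.426 in edgeR, given for the CCR6+CD69+ and CCR6-CD69- lung populations and then for circulating cells).

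Of 12 plasma cell markers listed, 3 had a row. These 3 summed to a median of 1059 CPM (101 to 5096) in WT libraries and 549 CPM (88.3 to 1426) with the label cKO. B cell markers had medians of 4091 and 4086 CPM. Granulocyte markers were higher with the label cKO, at a median of 150 CPM (0 to 1276) against 63.5 CPM (0 to 277) in WT. The plasmacytoid dendritic cell markers not shared with B cells had medians of 1089 CPM in WT and 1443 CPM with the label cKO. Natural killer cell markers had medians of 55.0 and 77.4 CPM. The part of any of these cell types in the Spc25 difference was not tested. The genes most like Spc25 over the 24 libraries were Zmynd19 (r = 0.78), Abhd6 (r = 0.73) and Lamb3, a laminin subunit (r = 0.71). By Spearman's rho they stood at 0.57, 0.59 and 0.46, ranks 21, 12 and 94 of the genes tested. Each peaked where Spc25 did, in the small library WT circulating replicate 2, at 216, 306 and 157 CPM (77, 109 and 56 counts). Zmynd19 averaged 21.2 ± 16.1, 16.5 ± 13.3 and 62.2 ± 103 CPM in the WT populations (SD, n = 4) and 0.344 ± 0.397, 0.267 ± 0.322 and 0.522 ± 1.04 CPM in those labelled cKO.

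Spc24, the direct partner of Spc25, averaged 8.01 ± 6.30, 15.0 ± 15.9 and 16.9 ± 30.6 CPM in the WT populations (SD, n = 4) and 9.27 ± 10.7, 0.321 ± 0.412 and 27.3 ± 49.1 CPM with the label cKO. Its genotype difference averaged over populations was -1.24 ± 1.06 (adjusted p = 0.925 in edgeR). Nuf2, another subunit of the NDC80 complex, gave -0.90 ± 1.23 (adjusted p = 0.989). Counts of Spc24 were thus present in both lung CCR6+CD69+ groups, where Spc25 was at 0 under the label cKO.

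Ccnd3, the gene of another D-type cyclin, averaged 73.3 ± 29.6, 165 ± 38.7 and 178 ± 138 CPM in the WT populations (SD, n = 4). With the label cKO it averaged 107 ± 54.3, 59.3 ± 71.4 and 163 ± 204 CPM. Its lung against circulating difference was -0.86 ± 0.58 (adjusted p = 0.458 in edgeR). The kinase gene Cdk6 gave -0.41 ± 0.62 (adjusted p = 0.798). Mcm3, a helicase subunit alongside Mcm6 and Mcm7, gave -0.59 ± 0.66 (adjusted p = 0.707). Mki67, the proliferation marker Ki-67, averaged 143 ± 69.1, 163 ± 114 and 369 ± 389 CPM in the WT populations, the last over libraries from 0 to 905 CPM. With the label cKO it averaged 221 ± 86.4, 193 ± 340 and 255 ± 185 CPM. It gave -1.06 ± 0.69 (adjusted p = 0.454). Ccnd2, Cdk4, Mcm2, Mcm4, Mcm5, Ndc80 and Top2a were not analysed here.

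A wider set of 194 cell cycle genes, of which 118 had a row and 110 were tested, was read alongside. It covered G1 cyclins and E2F, cyclin-dependent kinase inhibitors, origin licensing, fork and nucleotide supply, kinetochore, anaphase-promoting complex and mitosis genes, and includes the 7. This set too was chosen with earlier results of these data known. In lung against circulating cells averaged over genotypes, 73 of the 110 had negative and 37 positive log2 fold changes, with a median of -0.46 beside 0.04 over all genes tested. Of the 110, 2 were called, Ccnd1 and Ccne2, the cyclin E2 gene (-3.72 ± 1.15, adjusted p = 0.0453 in edgeR), a smaller share than the 4.45% of all genes. Ccne2 was at or below 1.31 CPM in all lung libraries labelled cKO and ranged from 1.04 to 102 CPM in the circulating ones, while in WT it had counts in 3 of 4 libraries of each lung population and in 1 of 4 circulating libraries.

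The subgroups of that set differed in their medians. Genes of the fork and nucleotide supply had a median of -0.89 (16 of 22 negative) and mitosis genes -0.68 (20 of 27 negative). Kinetochore and centromere genes, the group of Spc25 and Cenpn, had 0.44 (7 of 20 negative), and none of these 3 groups had a called gene in that comparison. Between genotypes averaged over populations, 73 of the 110 were negative with a median of -0.32 beside -0.06 over all genes tested, and Spc25 was the 1 called. Kinetochore and centromere genes there had a median of -0.26, with 12 of 20 negative.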

How the data were processed

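Bulk polyadenylated RNA was sequenced from 24 libraries in 6 groups and 2 batches, each group with 2 libraries per batch, per the labels. The authors deposited whole-number read counts per gene. FastQC, STAR, Salmon and the build mm39 are named in the submitters' processing notes, and which of them made the counts is not given in the sources used here. Values are shown as CPM, counts scaled to a library total of 1000000 over the 18470 genes analysed. Groups and replicate numbers were taken from the labels. Comparisons were tested in R 4.3.3 with edgeR 4.0.16: TMM scaling, edgeR's default filter by group (6779 genes), group and batch as terms, all 24 libraries in the fit, the robust quasi-likelihood F-test, and Benjamini-Hochberg adjustment over all genes tested, called at an adjusted p under 0.05. SE is the absolute log2 fold change divided by the square root of F. The biological coefficient of variation was 1.10. All 7 genes were tested this way, and the code was tested on simulated data. There, comparisons of 2 populations recovered 18 to 19% of 4-fold and 61 to 73% of 16-fold changes, set in genes above the median level. Lung against circulating averaged over genotypes recovered 54% and 93%, and genotypes averaged over populations 70% and 99%. A gene that was not called may therefore still differ.

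Alternatives were DESeq2 1.42.0, RLE scaling, other filters, a fit with no batch term, fits within either batch, fits of only the groups compared, replicate blocks, and leaving out each library, the 2 libraries under 500000 counts or the 2 led by Chil3. The comparison of genotypes averaged over populations was added after the counts had been seen. Named are the 7 genes, partners or relatives of theirs, genes of the listed pathways past the threshold, and the up to 3 genes most like a member by Pearson's r. The members and lists were chosen with earlier results of these data known. Same-numbered libraries of a genotype were not treated as pairs in the main fit. The correlation of their deviations from the fit of group and batch ran from -0.12 to 0.07 over 24 pairs. With a spread this wide, low correlations cannot exclude that such libraries are paired.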

Additional observations from a re-analysis of the deposited data

Results flagged for a closer look

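In groups of 4 libraries, a value was singled out where 1 library stood far from the others by Dixon's test. For normal values chance does this in about 1 in 20 groups. That rate does not hold for CPM of sparse counts, where a group with counts in 1 library is always flagged. A library was singled out in 7 of 39 groups checked, each the highest of its group, and whether this exceeds chance was not tested. Mcm7 stood at 145 CPM in cKO lung CCR6-CD69- replicate 1, with the next library at 7.16 CPM. Ube2c stood at 48.9 CPM in cKO lung CCR6-CD69- replicate 3, with the next at 4.21 CPM, and at 256 CPM in cKO circulating replicate 1, with the next at 9.59 CPM. Cdc20 stood at 27.9 CPM in cKO lung CCR6+CD69+ replicate 3, with the next at 2.49 CPM, and at 4.18 CPM in cKO circulating replicate 2, which is 4 counts, with the next at 0.548 CPM. Cenpn stood at 8.11 CPM in WT circulating replicate 3 and at 0.239 CPM in cKO lung CCR6+CD69+ replicate 2, the latter a single count, where the other libraries of each group were at 0.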

How the results depend on the processing

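The log2 fold changes of the 7 genes did not reverse a call under any alternative run. Of their values under alternatives, 3189 kept direction and side of the threshold, 210 moved without a call, 43 lost a call and 21 gained one. Most values had no call to lose. Ccnd1 kept its call in 26 of 36 alternatives between the WT lung populations and in 34 of 36 against WT circulating cells. With the label cKO these were 30 and 36 of 36. In lung against circulating averaged over genotypes it kept the call in 36 of 36. Spc25 kept its call between genotypes averaged over populations in 10 of 35. All mean levels stayed within 1 SD under TMM-scaled CPM. They also did with a library left out, but leaving out 1 of 4 libraries cannot move a mean by 1 SD. Immunoglobulin genes held 0.0185 to 0.263% of a library's counts, so totals without them could hardly move a mean either. Neither of these last checks is evidence of stable levels. The count of genes called among the 7 changed as follows, and the cause was not tested. In WT lung CCR6+CD69+ against lung CCR6-CD69- it went from 1 to 0 without the batch term, in each batch alone, and with the description number as replicate block (Ccnd1 adjusted p = 0.0533), and lay between 0 and 1 with a library left out. In WT lung CCR6+CD69+ against circulating it was 0 in each batch alone. In the lung populations labelled cKO it was 0 without the batch term, in each batch alone, and with only the groups compared, and 0 to 1 with a library left out. In cKO lung CCR6-CD69- against circulating DESeq2 called 2. In both lung populations against circulating it was 3 with RLE scaling and with DESeq2, 2 with no filter, in each batch alone, without libraries under 500000 counts and without those led by Chil3, and 1 to 3 with a library left out. Of all genes, 302 were called there, and 345 with RLE scaling, 435 with no filter, 206 and 101 in batches 1 and 2, 437 without the small libraries and 320 without those led by Chil3. In cKO against WT averaged over populations it was 0 without the batch term, in each batch alone, without libraries under 500000 counts, without those led by Chil3, and with the title number as replicate block (Spc25 -5.68, adjusted p = 0.0915), and 0 to 1 with a library left out. The replicate block changed no other of these counts.

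DESeq2 called more of all genes than edgeR: 762 against 302 in lung against circulating, 70 against 8 between genotypes averaged over populations, and 54, 280, 130, 342, 488 and 520 against 20, 80, 11, 31, 104 and 21 in the 6 comparisons of populations within a genotype. RLE scaling moved the median of all genes from 0.26 to 0.07 in the lung populations labelled cKO and from -0.26 to -0.07 in cKO lung CCR6-CD69- against circulating. A library's limit of 3 counts, the same for every gene, reached 23.3 CPM, and more than 3 counts were found in 14 libraries for Cdc20, 9 for Spc25 and 6 for Cenpn.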
